A study of Mus musculus with 28 samples.

Results

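The chromatin of 8 genes that encode regulators of the heart lineage was examined: the 4 MEF2 genes *Mef2a*, *Mef2b*, *Mef2c* and *Mef2d*, the MEF2 and SRF coactivator gene *Myocd*, the bHLH genes *Hand1* and *Hand2* and the LIM-homeobox gene *Isl1*. They were chosen by name, and all 8 were found among the 22367 protein-coding genes of the mm9 annotation. The chromatin of each was followed in mesodermal cultures with and without *Brg1*, the ATPase subunit of BAF chromatin remodelling complexes. The control and 4-OHT-treated cultures came from mouse embryonic stem cells (ESCs) that carry floxed *Brg1* alleles and a constitutively expressed Cre recombinase fused to an estrogen receptor (*Brg1* f/f; *Actin-CreER*), so that the controls carry both alleles too. The ESCs were grown for 2 days as embryoid bodies and then for 40 h with VEGF, activin A and BMP4. At day 2 the cultures received 200 nM 4-hydroxytamoxifen (4-OHT), which activates Cre and deletes *Brg1*, or its solvent tetrahydrofuran (THF) alone as the control, and chromatin was collected at day 4. Control and 4-OHT-treated cultures were each assayed by ChIP-seq for H3K27ac in 2 replicates, for H3K27me3 in 3 and for the Polycomb protein Suz12 in 2. A further 3 replicates with an antibody to FLAG-tagged Brg1 are labelled with the same genotype and normal *Brg1*, whereas the methods of the study describe Brg1-FLAG ESCs. The control and 4-OHT-treated cultures thus share 1 genotype, and Brg1 loss itself cannot be read from these lists.

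H3K27ac is deposited at active promoters and enhancers, and H3K27me3 is laid down by Polycomb repressive complex 2, of which Suz12 is a core subunit, at developmental genes that are held silent. MEF2 proteins are MADS-box factors that bind an A/T-rich element in muscle genes. Hand1 and Hand2 bind E-boxes with E-protein partners and are required for the ventricles, and Isl1 marks the progenitors of the second heart field. *Mef2c*, *Hand2*, *Isl1* and *Myocd* are known for their expression in cardiac precursors, whereas *Mef2a* and *Mef2d* are expressed in many tissues.

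The files hold the enriched regions of each replicate as start and end positions, with no score and no read count. The measure used here is therefore the covered length, the number of bases in a window that lie in a called region. The main window joins 5 kb on each side of every annotated transcript start of a gene. A gene was called lower or higher when all 4-OHT replicates lay below or above all control replicates, and each count is read beside the share of all genes that met the same criterion. The exact two-sided permutation test over samples cannot go below p = 0.333 for 2 against 2 replicates or p = 0.1 for 3 against 3. Read depth is unknown, and a weaker or shallower library cannot be told apart from less enrichment.

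The 17 lists held between 192 and 41062 regions. H3K27ac lists covered 26.1 to 30.8 Mb. H3K27me3 lists covered 8.38, 11 and 10 Mb in the controls and 4.74, 8.99 and 7.62 Mb after 4-OHT, a ratio of the means of 0.726, and replicate 1 was more fragmented than replicates 2 and 3 in both conditions. Suz12 lists covered 3.58 to 4.77 Mb. FLAG replicate 3 held 192 regions against 8021 and 8257 in replicates 1 and 2, and none of its regions lay within 50 kb of the 8 genes. Of 12 mesoderm markers, 11 had H3K27ac near a start in both control replicates, the exception being *Kdr*, against 0 of 7 neural markers found in the annotation 2 of 8 cardiomyocyte, 5 of 8 pluripotency and 4 of 6 endoderm markers. After 4-OHT these numbers were 10, 1, 0, 6 and 3, and their part in the results below was not tested.

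At their starts the 8 genes fell into different chromatin states. *Mef2a*, *Mef2b* and *Mef2d* carried H3K27ac and no H3K27me3 or Suz12. *Hand1*, *Hand2* and *Isl1* carried H3K27me3 and Suz12, and *Hand1* and *Isl1* also had short H3K27ac regions at the start in all 4 H3K27ac lists. *Mef2c* had short H3K27me3 regions and *Myocd* isolated short H3K27ac regions, each without the other mark.

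**Figure D1:**
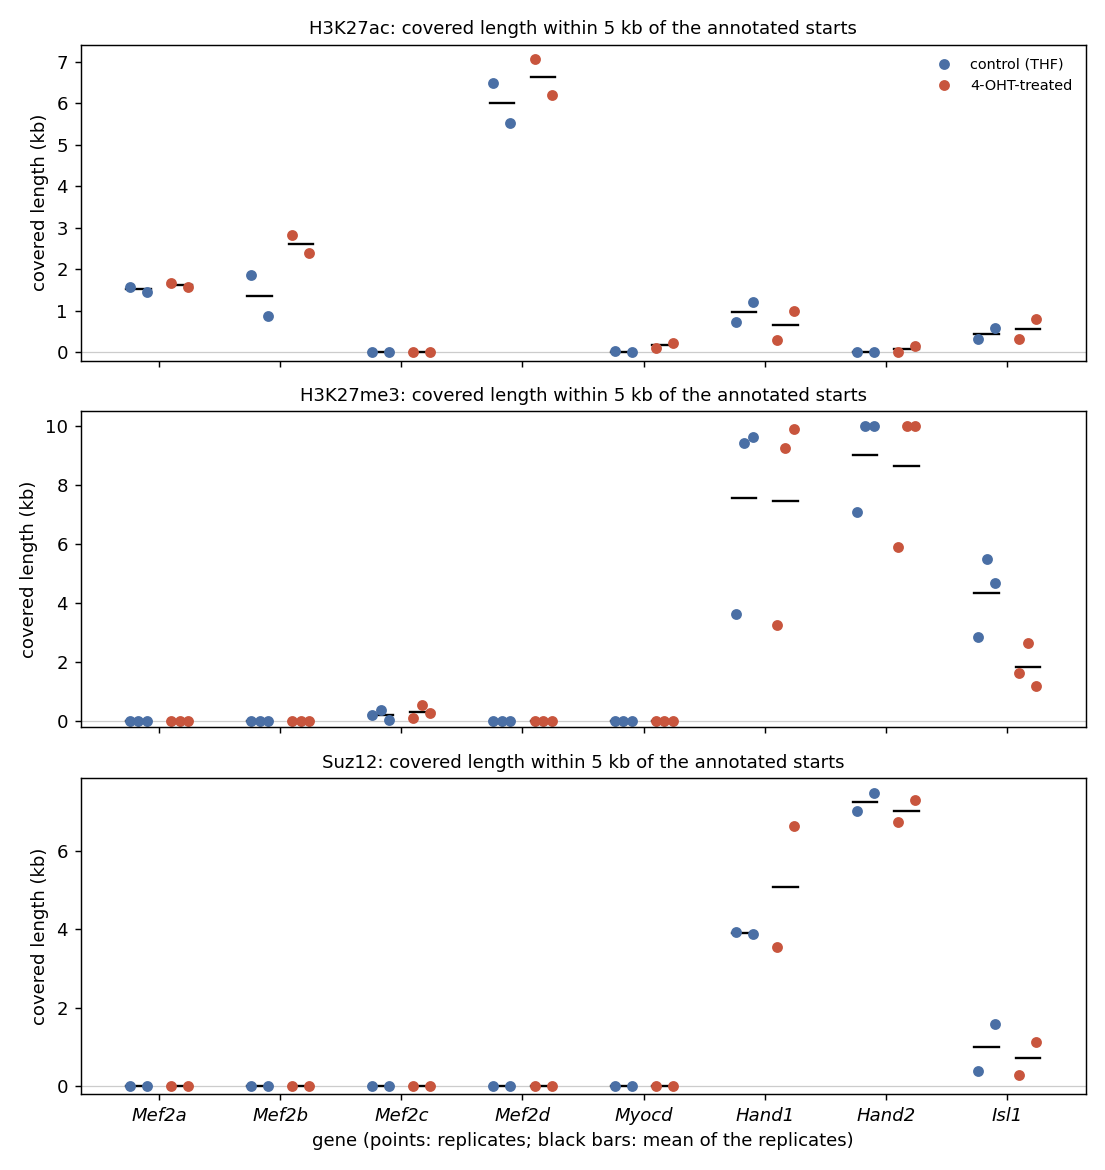
Covered length (kb) within 5 kb of the annotated starts of each gene, for H3K27ac (2 replicates per condition), H3K27me3 (3) and Suz12 (2); points are replicates, blue for control and red for 4-OHT-treated cultures, and black bars are means. The replicates of the conditions are separate only for H3K27ac at *Mef2b* and *Myocd* and for H3K27me3 at *Isl1*.

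For H3K27ac, 0 of the 7 genes with any covered base were lower after 4-OHT, beside 13.8% of 12582 genes, and 2 of 7 were higher, beside 39.5% of all genes. For H3K27me3, 1 of 4 was lower, beside 12.3% of 4449 genes, and 0 were higher, beside 0.202%. For Suz12, 0 of 3 were lower or higher, beside 5.66% and 32.6% of 2439 genes. limma, fitted to log2(covered bp + 100) over all genes with a region, called none of the 8 genes at an adjusted p below 0.05, beside 0.183%, 0.135% and 2.71% of all genes for H3K27ac, H3K27me3 and Suz12. At an unadjusted p below 0.05 it held 1 of the 8 genes for H3K27ac, *Myocd*, 1 for H3K27me3, *Isl1*, and 0 for Suz12. With so few genes these counts do not set the group apart from all genes, and the accounts below are of what lay where at each gene.

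Promoter sequence differed among the 8 genes. The sequences run from 250 bases before the 5′ end of the gene through the first 50 bases from it, on the strand of the gene in mm9, with CpG dinucleotides in capitals, and show 1 H3K27ac-marked MEF2 promoter, the unmarked 5′ end of *Mef2c* and the 3 Polycomb-marked genes.
Mef2a (chr7:74517695-74517994, minus): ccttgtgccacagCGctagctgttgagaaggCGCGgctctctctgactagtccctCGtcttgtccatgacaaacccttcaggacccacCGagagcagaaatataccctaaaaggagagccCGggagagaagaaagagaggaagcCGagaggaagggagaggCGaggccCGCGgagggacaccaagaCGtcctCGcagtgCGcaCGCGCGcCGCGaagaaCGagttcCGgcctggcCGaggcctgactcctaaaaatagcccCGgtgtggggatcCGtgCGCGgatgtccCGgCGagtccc
Mef2c (chr13:83642783-83643082, plus): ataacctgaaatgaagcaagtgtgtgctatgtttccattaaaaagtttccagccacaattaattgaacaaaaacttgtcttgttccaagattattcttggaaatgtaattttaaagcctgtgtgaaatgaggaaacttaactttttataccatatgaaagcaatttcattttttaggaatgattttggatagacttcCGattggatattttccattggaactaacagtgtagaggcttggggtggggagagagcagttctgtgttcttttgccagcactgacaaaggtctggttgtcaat
Hand1 (chr11:57646271-57646570, minus): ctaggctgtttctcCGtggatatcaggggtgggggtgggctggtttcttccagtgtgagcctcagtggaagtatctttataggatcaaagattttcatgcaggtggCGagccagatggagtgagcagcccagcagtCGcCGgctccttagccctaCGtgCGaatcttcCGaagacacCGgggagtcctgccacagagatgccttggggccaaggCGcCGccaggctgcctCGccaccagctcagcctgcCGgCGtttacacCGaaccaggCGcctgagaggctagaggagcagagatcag
Hand2 (chr8:59799530-59799829, plus): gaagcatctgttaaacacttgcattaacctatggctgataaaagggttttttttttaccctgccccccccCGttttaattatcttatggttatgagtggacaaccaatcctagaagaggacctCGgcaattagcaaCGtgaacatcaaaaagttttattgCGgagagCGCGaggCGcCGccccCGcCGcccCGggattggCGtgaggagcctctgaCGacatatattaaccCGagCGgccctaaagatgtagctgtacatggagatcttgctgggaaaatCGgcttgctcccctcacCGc
Isl1 (chr13:117099847-117100146, minus): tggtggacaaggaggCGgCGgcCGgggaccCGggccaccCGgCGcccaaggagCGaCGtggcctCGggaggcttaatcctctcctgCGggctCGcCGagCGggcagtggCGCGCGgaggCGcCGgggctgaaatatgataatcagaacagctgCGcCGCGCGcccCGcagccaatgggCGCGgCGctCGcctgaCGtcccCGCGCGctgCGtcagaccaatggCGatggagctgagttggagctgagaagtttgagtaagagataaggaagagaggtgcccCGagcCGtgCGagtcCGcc
Within 500 bp of the 5′ end on each side, the observed to expected CpG ratio was 0.888 at *Mef2a*, 0.84 at *Mef2d*, 0.774 at *Isl1* and 0.743 at *Hand2*, above the median of 0.549 over all protein-coding genes. It was 0.552 at *Myocd*, 0.354 at *Mef2b*, 0.339 at *Hand1* and 0.296 at *Mef2c*. *Mef2a* and *Mef2d* thus had the highest ratios of the 8, and of the Polycomb-marked genes *Hand1* alone was below the median.

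*Isl1* (ENSMUSG00000042258.5; chromosome 13, 117088478 to 117099896, minus strand, mm9) was the 1 gene of the 8 with less H3K27me3 at its start after 4-OHT. In the 10-kb window around its single start, H3K27me3 covered 2875, 5500 and 4675 bp in control replicates 1, 2 and 3 and 1650, 2650 and 1200 bp in the 4-OHT replicates. All 3 4-OHT replicates lay below all controls. The means were 4350 ± 1342.3 and 1833.3 ± 742.2 bp (SD, n = 3), a difference of -2516.7 bp (exact permutation p = 0.1, the smallest possible). In limma the log2 fold change was -1.22 with an unadjusted p of 0.0311 and an adjusted p of 0.525, and with the replicate number as a block the adjusted p was 0.247. The ranges of the conditions overlapped in this window when covered length was scaled to the total of each list, and also when regions under 200 bp were left out.

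The difference at *Isl1* was larger over the locus. Within 50 kb of the gene H3K27me3 covered 5325, 10600 and 9100 bp in the controls and 1975, 3450 and 1275 bp after 4-OHT, so that the highest 4-OHT value was below the lowest control. The mean after 4-OHT was 0.268 of the control mean, whereas the median ratio of the 4754 genes with at least 1 kb of control H3K27me3 in this window was 0.691, and 4.44% of them had a ratio as low or lower. Here the replicates remained separate after scaling to list totals. In this window 2 of the 6 genes with H3K27me3 were lower, *Isl1* and *Mef2b*, beside 15.9% of 9675 genes, and 0 were higher, beside 0.145%.

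The H3K27me3 of the locus was split into many blocks along the gene and on both sides of it. An intronic block of 3500 bp, centred 2.4 kb into the gene, was called in all 6 lists, at 2150, 3450 and 3400 bp in the controls and 1300, 2175 and 1175 bp after 4-OHT. A block centred 13.3 kb from the start, beyond the 3′ end, covered 850, 825 and 450 bp in the controls and 200, 475 and 0 bp after 4-OHT. Of the blocks called in all 3 controls, the one at 5.91 kb (550, 375 and 700 bp) was 100, 0 and 25 bp after 4-OHT, and the one at 6.83 kb (25, 475 and 625 bp) was absent from all 3 4-OHT lists. These blocks were singled out after their values were seen.

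The other marks did not separate the conditions at the *Isl1* start. H3K27ac there covered 325 and 575 bp in the controls and 325 and 800 bp after 4-OHT. A second H3K27ac region, of 1100 bp at the 3′ end of the gene, covered 975 and 700 bp in the controls and 625 and 675 bp after 4-OHT, without overlap but with only 25 bp between the nearest values. H3K27ac within 50 kb of the gene overlapped, at 1300 and 1375 bp in the controls and 950 and 1475 bp after 4-OHT. Suz12 in the start window covered 400 and 1600 bp in the controls and 300 and 1125 bp after 4-OHT, so that the replicates of 1 condition differed more than the conditions did. No FLAG list held a region within 50 kb of *Isl1*.

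**Figure D2:**
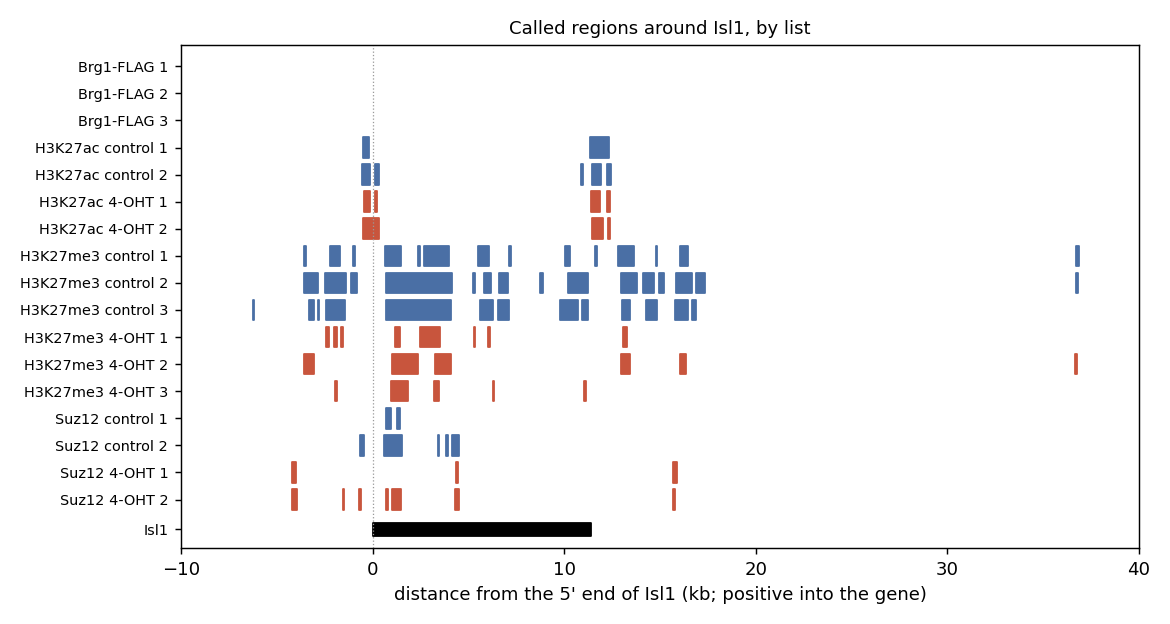
Called regions of the 17 lists around *Isl1*, by distance (kb) from its 5′ end; grey is Brg1-FLAG, blue control, red 4-OHT, and the black bar is the gene. The H3K27me3 blocks along the gene are fewer and shorter in the 3 4-OHT rows, while the H3K27ac regions at the start and the 3′ end appear in all 4 rows.

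*Hand2* (ENSMUSG00000038193.3; chromosome 8, 59799780 to 59803314, plus strand) lay in the widest Polycomb domain of the 8 genes. Merged over all lists, a single H3K27me3 domain of 45000 bp spanned positions 59787351 through 59832350. Called length within it was 34825, 44200 and 43725 bp for the controls and 29925, 43425 and 43125 bp after 4-OHT, and replicate 1 was the lowest in both conditions. In the start window H3K27me3 covered all 10001 bp in replicates 2 and 3 of both conditions, so that no higher value was possible there, and 7101 and 5926 bp in control and 4-OHT replicate 1.

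Suz12 formed a core of 19625 bp within this domain, of 18550 and 19350 bp in the controls and 15675 and 19000 bp after 4-OHT. In the start window it covered 7030 and 7476 bp in the controls and 6730 and 7305 bp after 4-OHT. These ranges overlapped for both Suz12 and H3K27me3 (exact permutation p = 0.667 and 1). Scaling H3K27me3 to list totals turned the direction at the *Hand2* start, from a mean difference of -391.7 bp to one of 2602.4 bp with no overlap, and 4.81% of all marked genes were higher under that scaling.

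At -7.13 kb from the start, inside the H3K27me3 domain, lay an H3K27ac region of 2500 bp in intergenic sequence. It covered 1625 and 2250 bp in the controls and 1350 and 2250 bp after 4-OHT, so it was present in all 4 lists and did not separate the conditions. When the controls alone were merged, this region was split into 2 parts called in both, 59791401 to 59791675 and 59791926 to 59793900. These were the only such regions near *Hand2*, and both overlapped H3K27me3 called in at least 2 of 3 controls. So did 1 of 5 near *Hand1*, whereas this was so for 157 of 27332 such regions over the genome, or 0.574%. After 4-OHT it was 2 of 2 near *Hand2*, again parts of the 2500-bp region. It was 1 of 3 near *Hand1* and 146 of 23941 over the genome, or 0.61%. The lists do not show whether both marks lay on the same chromosome in the same cell. FLAG replicate 1 held 3 regions and replicate 2 held 2 regions within 50 kb of *Hand2*, but none was shared between replicates.

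**Figure D3:**
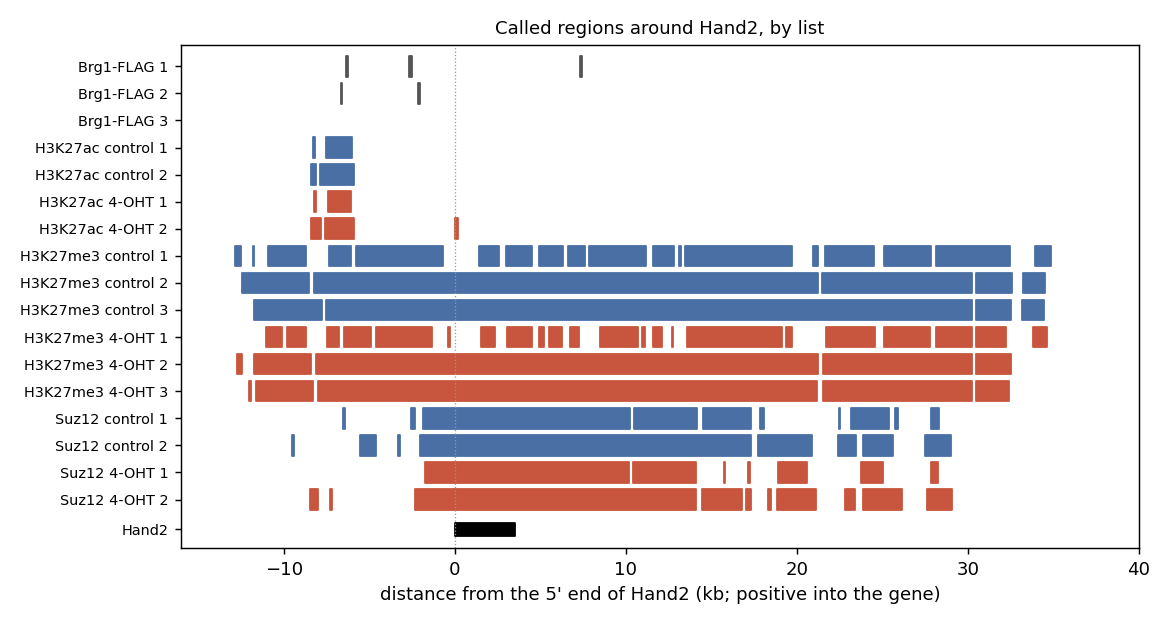
Called regions of the 17 lists around *Hand2*, by distance (kb) from its 5′ end; colours as for *Isl1*. The H3K27me3 domain and its Suz12 core lie over the gene region in every H3K27me3 and Suz12 list, with gaps in H3K27me3 replicate 1 of both conditions, and an H3K27ac region lies inside the domain upstream of the gene in all 4 H3K27ac lists.

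*Hand1* (ENSMUSG00000037335.7; chromosome 11, 57642207 to 57646320, minus strand) carried H3K27me3 on both sides of its start and overlapping the H3K27ac region there. H3K27me3 in the start window covered 3645, 9447 and 9647 bp in the controls and 3270, 9277 and 9902 bp after 4-OHT, with overlapping ranges (exact permutation p = 0.9). Scaled to list totals, the mean difference here also changed sign, from -96.7 to 2161.5 bp, still with overlap. With the window largely covered in replicates 2 and 3 of both conditions, their scaled values mostly follow the list totals. Its mean after 4-OHT was 0.987 of the control mean, and 0.957 at *Hand2*, beside a median of 0.753 over the 2039 genes with at least 1 kb of control H3K27me3. Of these genes 95.4% and 92.3% had a ratio as low or lower, whereas *Isl1* at 0.421 was among the lowest 11.1%. The start windows of *Hand1* and *Hand2* were largely or fully covered in replicates 2 and 3, which limits what these ratios can show. Within 50 kb, where coverage was partial, the ratios were 0.937 at *Hand1* and 0.928 at *Hand2*, beside the median of 0.691.

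Suz12 at *Hand1* covered 3925 and 3875 bp in the controls and 3550 and 6625 bp after 4-OHT. The 4-OHT replicates lay on both sides of the controls, and the direction of the mean rested on 4-OHT replicate 2, without which the difference changed from 1187.5 bp to -350 bp. The start window also holds the start of another coding gene model, *Gm11003*.

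H3K27ac at the *Hand1* start formed a region of 1200 bp that covered 725 and 1200 bp in the controls and 300 and 1000 bp after 4-OHT, with overlapping ranges (exact permutation p = 0.667). A further 3 H3K27ac regions lay 32, 33.8 and 36.2 kb upstream in intergenic sequence, all called in both controls. The region at -32 kb covered 1100 and 1350 bp in the controls and 875 and 0 bp after 4-OHT. The region at -33.8 kb covered 500 and 1300 bp and was absent from both 4-OHT lists, and the region at -36.2 kb covered 275 and 750 bp in the controls and 100 and 0 bp after 4-OHT.

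All 3 upstream regions were thus shorter in both 4-OHT replicates than in either control. Over the gene and 50 kb on each side, H3K27ac covered 2875 and 4950 bp in the controls and 2075 and 1700 bp after 4-OHT, with no overlap (exact permutation p = 0.333, the smallest possible). The ratio of the means was 0.482, beside a median of 1.08 over 14274 genes, 6.78% of which had a ratio as low or lower. *Hand1* was the 1 gene of 7 that was lower for H3K27ac in this window, beside 21.9% of 17977 genes, and 2 of 7 were higher, *Mef2a* and *Mef2b*, beside 38.8%. The upstream regions were singled out after their values were seen, their nearest annotated start is that of *Gm12244*, and their target gene was not tested.

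The window of 300 bp at the centre of the region lost from both 4-OHT lists held 2 GATA motifs (AGATAAG) and 1 Hand E-box (CATCTG), shown in capitals on the plus strand of mm9.
Hand1 -33.8 kb (chr11:57679976-57680275): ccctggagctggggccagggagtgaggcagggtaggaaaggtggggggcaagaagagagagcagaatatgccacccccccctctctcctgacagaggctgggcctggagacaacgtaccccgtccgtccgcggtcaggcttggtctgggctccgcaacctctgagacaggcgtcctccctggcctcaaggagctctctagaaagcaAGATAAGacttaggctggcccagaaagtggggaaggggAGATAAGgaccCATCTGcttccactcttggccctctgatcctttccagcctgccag
The GATA motif was found on either strand in 5.32% of the windows of this width centred on 13914 distal H3K27ac control regions, and the E-box in 21.4%. The central 300 bp of the neighbouring region at -32.1 kb also held 1 GATA motif and 1 Hand E-box, and those of the region at -36.2 kb held none of the 5 motifs searched. None of the 5 motifs contains another, and the matches describe the sequence only.

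**Figure D4:**
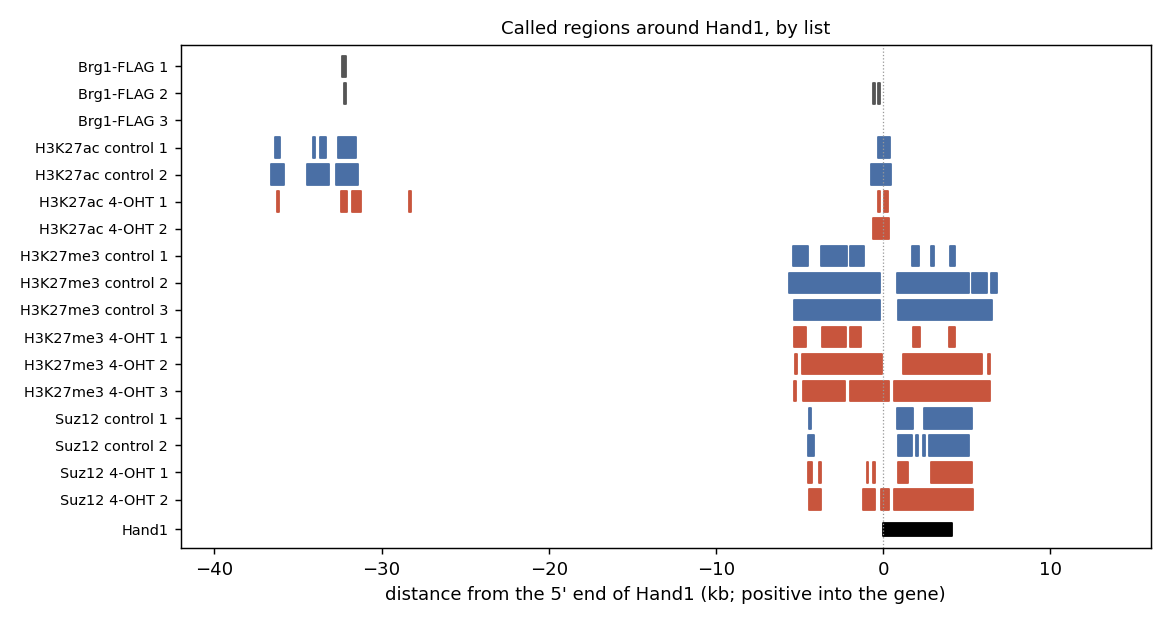
Called regions of the 17 lists around *Hand1*, by distance (kb) from its 5′ end; colours as for *Isl1*. H3K27me3 and Suz12 lie around the start, where H3K27me3 overlaps an H3K27ac region, and the H3K27ac regions between 32 and 36.2 kb upstream are shorter or missing in the 4-OHT rows.

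*Mef2d* (ENSMUSG00000001419.10; chromosome 3, 87946294 to 87976008, plus strand) had the broadest H3K27ac of the 8 genes. In its start windows H3K27ac covered 6475 and 5525 bp in the controls and 7056 and 6200 bp after 4-OHT, with overlapping ranges, or 21.7% to 27.7% of the window. Most of this was a promoter region of 6600 bp, which covered 6475 and 5525 bp in the controls and 6550 and 6050 bp after 4-OHT.

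An intronic H3K27ac region of *Mef2d* went the other way. It was 2800 bp wide, centred 7.76 kb into the gene, and covered 2300 and 2550 bp in the controls and 1450 and 1175 bp after 4-OHT, a decrease in each 4-OHT list against either control. It was chosen after its values were seen. Within the gene body the covered length was 3807 ± 106.1 bp in the controls and 2819.5 ± 654.1 bp after 4-OHT (SD, n = 2), again without overlap, and the direction over the gene body was thus opposite to that at its starts. The central 300 bp of the intronic region held 1 match to the MEF2 motif, in capitals (CTA and TAG with any 4 bases between them). Of the windows of this width centred on distal H3K27ac control regions, 4.66% held it.
Mef2d +7.77 kb (chr3:87953914-87954213): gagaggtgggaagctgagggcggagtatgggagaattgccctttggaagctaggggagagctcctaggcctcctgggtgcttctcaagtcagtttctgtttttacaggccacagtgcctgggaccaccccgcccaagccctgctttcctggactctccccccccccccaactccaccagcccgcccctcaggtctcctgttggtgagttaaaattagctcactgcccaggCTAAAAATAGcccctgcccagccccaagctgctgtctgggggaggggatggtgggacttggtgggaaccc
H3K27me3 and Suz12 near *Mef2d* lay downstream of the gene, mainly around the starts of *AW047730* and *Gm3764*. Suz12 within 50 kb of the gene covered 4025 and 4075 bp in the controls and 3025 and 3775 bp after 4-OHT. *Mef2d* was the 1 gene of 6 with lower Suz12 in this window, beside 5.49% of 5370 genes, and 0 were higher, beside 30.6%.

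*Mef2a* (ENSMUSG00000030557.9; chromosome 7, 74376049 to 74517744, minus strand) had a single H3K27ac region at its 5′ end. It covered 1575 and 1450 bp in the controls and 1675 and 1575 bp after 4-OHT, with overlapping ranges (exact permutation p = 0.667). Of its intronic regions, the one of 1725 bp at 128.5 kb into the gene covered 1500 and 725 bp in the controls and 1700 and 1600 bp after 4-OHT. Over the gene and 50 kb on each side the values were 4150 and 4250 bp against 4550 and 4575 bp, without overlap, a ratio of 1.09 beside the median of 1.08 over all genes.

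*Mef2b* (ENSMUSG00000079033.3; chromosome 8, 72676677 to 72691387, plus strand) had more H3K27ac after 4-OHT. In its start window H3K27ac covered 1850 and 875 bp in the controls and 2830 and 2400 bp after 4-OHT, without overlap. The mean was 1362.5 ± 689.4 bp in the controls and 2615 ± 304.1 bp after 4-OHT (SD, n = 2; exact permutation p = 0.333, the smallest possible), and limma gave an adjusted p of 0.35. The ratio of 1.92 was at or above that of 99% of the 7374 genes with at least 1 kb of control H3K27ac. *Mef2b* shares this window with the overlapping coding gene model *2310045N01Rik*, so that the signal cannot be given to 1 of them.

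The H3K27ac at *Mef2b* came from several short regions. The region at -2.56 kb covered 1375 and 875 bp in the controls and 1700 and 1650 bp after 4-OHT. The region over the 5′ end covered 475 and 0 bp in the controls and 775 and 650 bp after 4-OHT. Within 50 kb H3K27ac covered 7975 and 7125 bp in the controls and 10775 and 10075 bp after 4-OHT, much of it at the starts of neighbouring genes such as *Nr2c2ap*, *Rfxank* and *Tmem161a*. H3K27me3 in that window lay mainly near *Ncan*, a brain proteoglycan gene, and covered 5412, 5625 and 6500 bp in the controls and 3437, 4350 and 4850 bp after 4-OHT. These H3K27me3 replicates did not overlap either, but did so after scaling to list totals.

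*Mef2c* (ENSMUSG00000005583.8; chromosome 13, 83643033 to 83806684, plus strand), a gene required for the early heart, had no H3K27ac region in its body or within 50 kb of it in any of the 4 lists. H3K27me3 at its second annotated start, about 21.4 kb into the gene, formed short regions in all 6 lists. In the start windows they covered 225, 375 and 50 bp in the controls and 125, 550 and 275 bp after 4-OHT, with overlapping ranges. A second stretch of H3K27me3 with Suz12 lay downstream of the gene, toward the start of *C130071C03Rik*. Together the H3K27me3 within 50 kb of *Mef2c* covered 3700, 4134 and 3834 bp in the controls and 2500, 4259 and 3859 bp after 4-OHT, and Suz12 covered 2284 and 2509 bp in the controls and 1350 and 2325 bp after 4-OHT.

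*Myocd* (ENSMUSG00000020542.11; chromosome 11, 64990063 to 65083491, minus strand) had no H3K27me3 or Suz12 within 50 kb in any list. H3K27ac in its start windows covered 25 and 0 bp in the controls and 100 and 225 bp after 4-OHT. These values did not overlap between the conditions, and limma gave an unadjusted p of 0.0286 and an adjusted p of 0.24. They came from different positions, however, each called in 1 list. The 100 bp were centred 0.266 kb into the gene, the 225 bp at -0.322 kb and the control 25 bp at -0.472 kb. The regions are a few calling steps of 25 bp wide, and the call was lost when regions under 200 bp were left out. The main H3K27ac region of the locus lay at -25.9 kb, in an intron of *Gm12295*, where it covered 450 and 1925 bp in the controls and 0 and 475 bp after 4-OHT. The region was absent from 4-OHT replicate 1, and the other 4-OHT value lay between the controls.

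**Figure D5:**
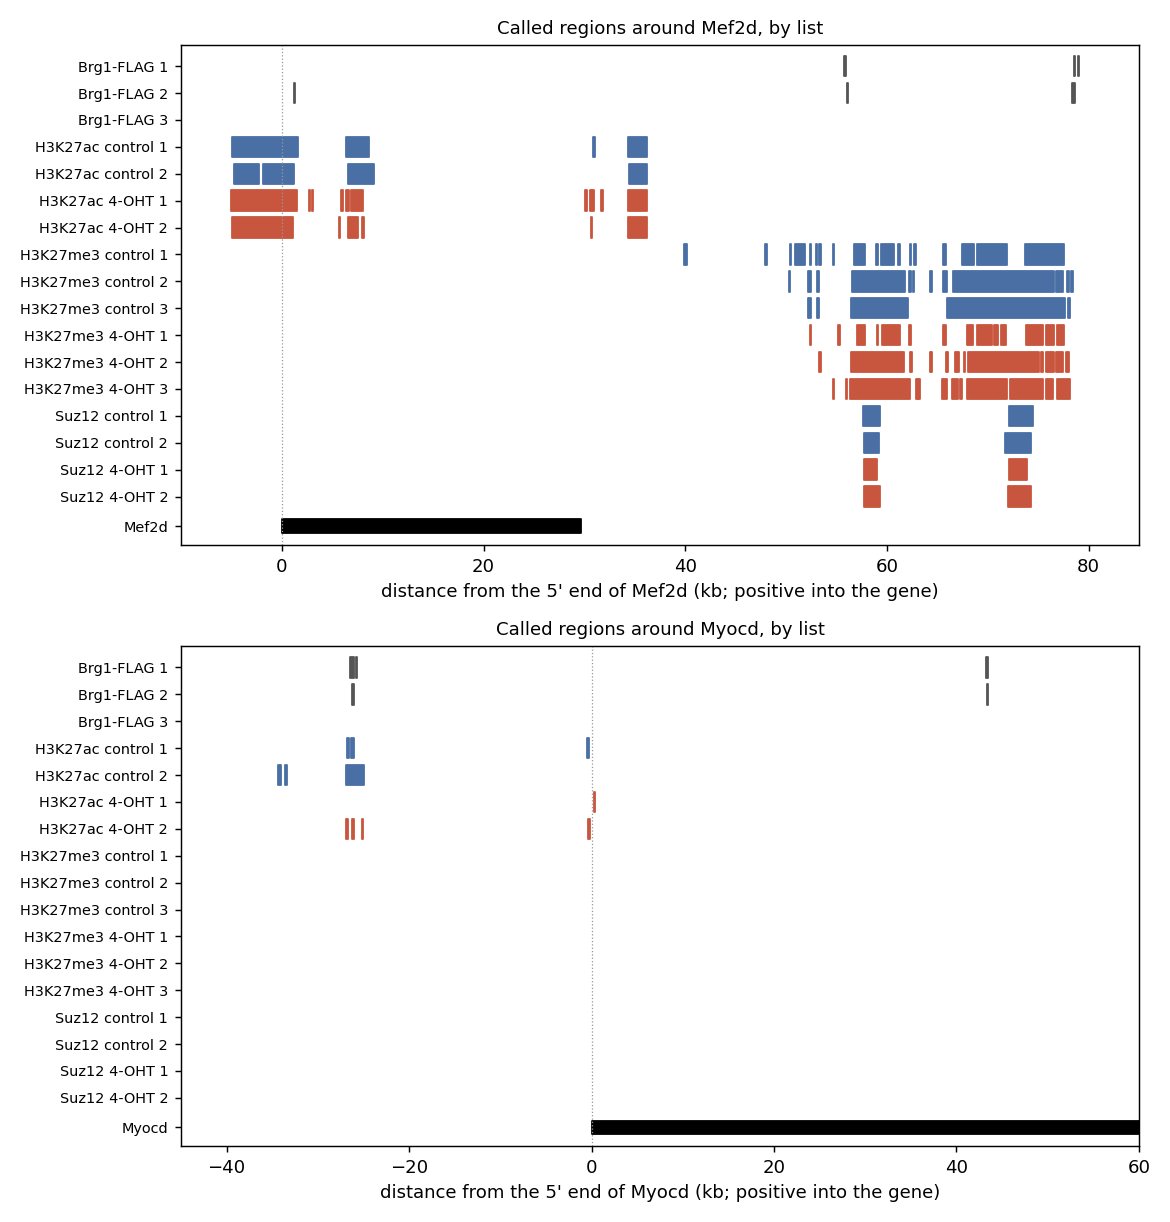
Called regions of the 17 lists around *Mef2d* (top) and *Myocd* (bottom), by distance (kb) from the 5′ end of each gene; colours as for *Isl1*. The *Mef2d* promoter is covered by H3K27ac in all 4 lists while the intronic region is narrower after 4-OHT, and at *Myocd* Brg1-FLAG regions of replicates 1 and 2 lie upstream in H3K27ac and inside the gene without it.

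Brg1 binding was read from the FLAG lists, and a region was taken as Brg1-bound when called in at least 2 of 3 replicates. Of 2390 such regions 4 lay within 50 kb of the 8 genes, 1 near *Mef2d*, 2 near *Myocd* and 1 near *Hand1*. A Brg1-bound region within 50 kb was found for 3 of 8 genes, beside 12.5% of 22367 protein-coding genes, and 0 of 8 had one in a start window, beside 2.75%. All 4 rested on FLAG replicates 1 and 2.

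Windows of 300 bp centred on each Brg1-bound region are shown on the plus strand of mm9. Matches to the Hand E-box CATCTG are in capitals, the single motif of the 5 searched that was present. The bound regions at *Mef2d* (250 bp), *Myocd* +43.3 kb (200 bp) and *Hand1* (225 bp) are narrower than the window, which there includes flanking sequence. The last match at *Myocd* +43.3 kb lies in the flank, past the end of the bound region at 65040250.
Mef2d +78.5 kb (chr3:88024651-88024950): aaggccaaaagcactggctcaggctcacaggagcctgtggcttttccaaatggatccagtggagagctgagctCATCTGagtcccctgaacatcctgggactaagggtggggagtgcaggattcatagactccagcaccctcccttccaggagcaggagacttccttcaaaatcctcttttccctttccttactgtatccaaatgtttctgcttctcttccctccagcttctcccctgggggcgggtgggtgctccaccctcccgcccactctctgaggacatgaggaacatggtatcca
Myocd +43.3 kb (chr11:65040001-65040300): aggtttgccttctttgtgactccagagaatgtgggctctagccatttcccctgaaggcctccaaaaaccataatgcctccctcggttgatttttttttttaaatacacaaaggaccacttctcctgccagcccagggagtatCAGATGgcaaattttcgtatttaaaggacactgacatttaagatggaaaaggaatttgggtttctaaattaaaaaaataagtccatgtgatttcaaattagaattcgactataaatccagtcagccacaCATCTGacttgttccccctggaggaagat
Myocd -26.3 kb (chr11:65109601-65109900): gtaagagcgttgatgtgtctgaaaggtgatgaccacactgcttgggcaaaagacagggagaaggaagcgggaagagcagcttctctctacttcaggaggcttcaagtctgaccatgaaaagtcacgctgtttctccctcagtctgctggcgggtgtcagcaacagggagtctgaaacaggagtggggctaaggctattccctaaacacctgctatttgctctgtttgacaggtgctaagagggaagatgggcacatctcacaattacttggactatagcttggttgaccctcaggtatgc
Hand1 -32.2 kb (chr11:57678414-57678713): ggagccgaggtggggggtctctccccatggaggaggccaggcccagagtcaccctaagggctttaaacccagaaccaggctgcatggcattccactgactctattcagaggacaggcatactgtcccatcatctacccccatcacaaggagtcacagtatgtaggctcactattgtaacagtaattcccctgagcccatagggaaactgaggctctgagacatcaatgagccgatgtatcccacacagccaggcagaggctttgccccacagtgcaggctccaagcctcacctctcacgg
The E-box was present in 2 of the 4 sequences and in 21.4% of the windows of this width centred on all 2390 Brg1-bound regions. None of the 4 held the GATA motif, which 5.77% of all these windows held, or the MEF2 motif, held by 3.72%. None held a forkhead motif (TGTTTAC), which was present in 5.06% of all, and the T-box motif searched (AGGTGTGA), present in 1.8%, was not found in these windows either. Both strands were searched. The absence holds for these windows only. The central 300 bp of the H3K27ac region around the *Hand1* site, which overlap the window shown, held 1 GATA motif and 1 Hand E-box. Those of the H3K27ac region around the *Myocd* site at -26.3 kb held 2 Hand E-boxes.

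The Brg1-bound regions lay in different settings. The *Hand1* region at -32.2 kb, of 200 and 100 bp in FLAG replicates 1 and 2, lay inside the H3K27ac region that was shorter in both 4-OHT replicates. The *Myocd* region at -26.3 kb, of 350 and 100 bp, lay inside the H3K27ac region that was absent from 1 4-OHT replicate. The *Myocd* region at 43.3 kb into the gene was intronic, of 200 and 150 bp, and the *Mef2d* region at 78.5 kb, of 100 and 250 bp, lay in an intron of *Gm3764* beside an H3K27me3 domain, and no H3K27ac list covered either.

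H3K27ac regions called in both controls numbered 28 within 50 kb of the 8 genes, 16 of them within 2.5 kb of an annotated start and 12 distal. After 4-OHT, 26 were overlapped in replicate 1, 25 in replicate 2 and 27 in at least 1, or 96.4% (95% exact binomial interval 81.7% to 99.9%, counting error only). The 1 region missing from both lists was that at -33.8 kb of *Hand1*, which is 3.57% of these regions, beside 19.8% of all 27332 control regions. Of the distal regions 1 of 12 was missing, or 8.33%, beside 33.1% of 13914 distal regions over the genome, and regions of 1 locus are not independent. The 2 distal regions counted near *Hand2* are parts of 1 region when all lists are merged.

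Pairs of replicates with the same number deviated together for H3K27me3, so the values were also compared within pairs. In the start windows 1 of 4 genes, *Isl1*, was lower in all 3 pairs, beside 44.7% of all genes. Within 50 kb 5 of 6 genes were lower in all 3 pairs, *Isl1*, *Hand1*, *Hand2*, *Mef2b* and *Mef2d* but not *Mef2c*, beside 50.6% of all genes. The control and 4-OHT values were 4025, 10950 and 10825 bp against 3650, 9825 and 10700 bp at *Hand1*. At *Hand2* they were 36075, 45500 and 45025 bp against 30725, 43675 and 43125 bp, where replicate 1 differed most.

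Genes that act with these regulators were taken from 3 lists. Of 22 other cardiac transcription factor genes, 11 had H3K27ac at a start, of which 3 were lower and 2 higher, beside 13.8% and 39.5% of all genes with H3K27ac. The lower ones were *Tbx3* (7034 ± 2226 to 4235 ± 1166.7 bp, SD, n = 2), *Tead1* (5506.5 ± 345.8 to 3287 ± 247.5 bp) and *Srf*, the MADS-box partner of myocardin (5312.5 ± 229.8 to 4450 ± 35.4 bp). Among the higher ones was *Tbx2* (0 ± 0 to 150 ± 176.8 bp). The median difference was -225 bp, beside 112.5 bp over all genes with H3K27ac.

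H3K27me3 was found at 20 of these 22 genes, beside 4449 of 22367 over the annotation. Of the 20, 0 were lower and 0 higher, beside 12.3% and 0.202% of all marked genes, with a median difference of -755.5 bp, beside -283.3 bp over all marked genes. Suz12 was present at 18, of which 1 was lower, *Tbx5* (7672 ± 424.3 to 6822 ± 318.2 bp), and 0 higher, beside 5.66% and 32.6% of all genes with Suz12, with a median difference of 43.8 bp beside 112.5 bp. H3K27me3 and Suz12 regions near a start, as at *Hand1*, *Hand2* and *Isl1*, were thus common among the listed cardiac factors. These counts take any covered base in any list of either condition, and the marks were not counted jointly per gene.

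Of 21 partner and cofactor genes, 15 had H3K27ac, of which 4 were lower and 5 higher, again beside 13.8% and 39.5%. Lower were *Mkl1*, a myocardin-related coactivator (2275 ± 671.8 to 775 ± 70.7 bp), and the class IIa deacetylase genes *Hdac5* (4762.5 ± 17.7 to 3275 ± 495 bp) and *Hdac7* (2543.5 ± 654.1 to 1303 ± 534.6 bp), whose products bind and repress MEF2 proteins. Higher were *Ldb1*, which binds the LIM domains of Isl1 (5875 ± 742.5 to 7437.5 ± 265.2 bp), *Mamstr*, a MEF2 coactivator (1300 ± 318.2 to 1950 ± 212.1 bp), and the E-protein gene *Tcf3* (2275 ± 106.1 to 2587.5 ± 88.4 bp). The median difference of 162.5 bp was close to the 112.5 bp over all genes. H3K27me3 was present at 8 of these genes, with 0 lower and 0 higher, beside 12.3% and 0.202%, and a median of -534 bp beside -283.3 bp. Suz12 was present at 7, with *Lhx3* lower by 700 bp, *Twist2* and *Cabin1* higher, beside 5.66% and 32.6%, and a median of 137.5 bp beside 112.5 bp.

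Of 20 cardiac target genes, 9 had H3K27ac, of which 3 were lower and 3 higher, beside 13.8% and 39.5%, with a median difference of -175 bp beside 112.5 bp. The lower ones were *Tnnt2*, which encodes cardiac troponin T (1250 ± 282.8 to 0 ± 0 bp), *Tnni1* (1472 ± 459.6 to 622 ± 247.5 bp) and *Ttn*, which encodes titin (300 ± 388.9 to 0 ± 0 bp), and the higher ones were *Fgf8* (6427 ± 742.5 to 7102 ± 70.7 bp), *Myl4* (1587.5 ± 88.4 to 1975 ± 70.7 bp) and *Tnnc1* (1575 ± 247.5 to 1937.5 ± 229.8 bp). Sarcomere genes were thus found in both directions. H3K27me3 was present at 5 and Suz12 at 2 of the target genes, with 0 lower or higher for either, beside 12.3% and 0.202% for H3K27me3 and 5.66% and 32.6% for Suz12. The medians were -33.3 and 187.5 bp, beside -283.3 and 112.5 bp.

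The genes most like each of the 8 were found by the Euclidean distance of log2(covered bp + 100) in the start windows over the 17 lists. *Hand2* was nearest to *Hoxa11*, *Hlx* and *Hoxa4* (distances 1.89, 1.9 and 1.94), and *Hand1* to *BC061194*, *Npas3* and *Gm13334* (2.2, 2.25 and 2.3). *Isl1* was nearest to *Zfp800*, *Shisa7* and *Mllt3* (2.31, 2.54 and 2.81), and *Mef2c* to *Ptger2*, *Rgs8* and *Lrfn3* (1.65, 1.66 and 1.67). The genes with H3K27ac alone had closer neighbours, *Ngdn*, *A930005H10Rik* and *Dph5* for *Mef2a* (0.0424, 0.052 and 0.052), *Mpv17*, *Wdtc1* and *Rin1* for *Mef2b* (0.227, 0.295 and 0.299), *Zc3h4* and *Per1* for *Mef2d* (0.312 and 0.331) and *Cog6*, *Zmynd10* and *Tigit* for *Myocd* (0.284, 0.379 and 0.402).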

How the data were processed

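ChIP-seq regions of 28 samples were used, 17 ChIP samples with a list each and 11 inputs that entered only the calling. Per the labels, the authors aligned reads with Bowtie to mm9 (version not given in the sources used here) and called regions against input, replicate by replicate, by a Poissonian model. The threshold was 1e-06 with a 2-fold cutoff for FLAG and 1e-12 for the other lists. The deposited columns are start and end positions, in steps of 25 bp, with no counts, so depth per sample is unknown. The genes, lists, windows and tests were chosen with earlier results of these data known.

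Start windows joined 5 kb on each side of all transcript starts in the GENCODE annotation of mm9, and the wider window was the gene and 50 kb on each side. Covered length and regions were counted per list. Calls required that replicates of the conditions did not overlap; genes without a covered base in any list of a mark were left out. limma (3.58.1, R 4.3.3) was run on log2(covered bp + 100) with Benjamini-Hochberg adjustment. Regions of replicates sharing at least 1 bp were merged. Sequences were read from the mm9 genome. Replicates are separate samples by the labels, which call them biological replicates. The genes named were the 8 members, up to 3 genes per list, mark and direction with the largest mean difference, genes starting in a member's window and the 3 nearest genes by pattern. Some genes that this rule names are not reported here.

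Pairing by replicate number was examined from the lists, as the correlation across genes between the deviations of same-numbered control and 4-OHT samples from the mean of their condition. It was 0.919, 0.841 and 0.781 for H3K27me3. Replicates 2 and 3 also correlated with each other across the conditions (0.628 and 0.682), and replicate 1 correlated negatively with both. The numbers thus set replicate 1 apart, while the pairing of replicates 2 and 3 by number is less certain. For H3K27ac the same-numbered correlation was 0.459 and for Suz12 0.599, where 2 pairs do not decide it. Covered lengths equalled a base-by-base count on simulated regions, and limma was tested on simulated differences. Alternatives covered windows, region width, scaling, measure, test, pseudocount, filter, overlap and each replicate left out. Python 3.11.15, NumPy 2.4.6, pandas 2.3.3, SciPy 1.17.1 and Matplotlib 3.10.9 were used.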

Additional observations from a re-analysis of the deposited data

How the results depend on the processing

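Counts of the 8 genes per mark depended on the window, the scaling and the measure. Percentages in brackets are the share of all genes called in the same setting. H3K27ac was lower at 0 genes at the starts (13.8%) and at 2 in the gene body (*Mef2d*, *Hand1*, 18.3%). Within 50 kb it was lower at 1 (*Hand1*), unscaled (21.9%) or scaled (18.7%). At the starts it was lower at 0 to 1 with a replicate left out (19.1% to 24.2%). It was higher at 2 (39.5%), and at 1 (*Mef2b*) with regions of at least 200 bp (39.3%) or by number of regions (7.61%). The count was 4 after scaling (50.6%), 0 in the 4 limma fits (0% to 0.31%) and 2 to 4 with a replicate left out (48.3% to 59.7%). H3K27me3 was lower at 1 (12.3%) and at 2 within 50 kb (15.9%). It was lower at 0 with regions of at least 200 bp (11.4%), after scaling (6.09%), by number of regions (4.9%) and in the limma fits (0% to 0.337%). After scaling it was higher at 1 (*Hand2*, 2602.4 bp, 4.81%), and at 2 within 50 kb (*Mef2c*, *Hand2*, 3.38%). The *Hand2* start window was fully covered in replicates 2 and 3 of both conditions, so their scaled values there follow the list totals alone. Suz12 was lower at 0 (5.66%), at 1 within 50 kb (*Mef2d*, 5.49%) and at 1 by number of regions (*Hand2*, 1.93%). It was lower at 3 within 50 kb after scaling (14%). With a replicate left out, 0 to 3 were lower (6.35% to 30.7%) and 0 to 1 higher (40% to 75.4%). The Suz12 difference at *Hand1* ran from -350 bp without 4-OHT replicate 2 to 2725 bp without 4-OHT replicate 1. Direction turned for H3K27ac at *Mef2d* in the gene body (-987.5 bp) and at *Myocd* within 50 kb (-400 bp). The causes of these shifts were not tested.

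With the replicate number as a block, genes moving one way in every numbered pair were counted, with the share of all genes in brackets. H3K27ac was lower at 1 (*Hand1*, 17.2%) and higher at 4 (51.5%). H3K27me3 was lower at 1 (44.7%), and Suz12 was lower at 2 (*Hand2*, *Isl1*, 12.3%). limma with the block called 0 members and 0 of all genes at an adjusted p below 0.05, with 1 member (*Isl1*, H3K27me3) at an unadjusted p below 0.05. Without it limma called 23, 6 and 66 genes for H3K27ac, H3K27me3 and Suz12, against 117, 15 and 123 with a pseudocount of 25 bp and 97, 0 and 37 without the filter. Without the filter most genes have no H3K27me3 or Suz12 in any list and hence no variance, so the variance estimate of limma, and the counts of 0 and 37, are unreliable there.

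The 4 Brg1-bound regions became 19 when any FLAG replicate sufficed, 0 without replicate 1 or 2, and 4 without replicate 3. The share of H3K27ac control regions kept was 96.4%, beside 80.2% of all control regions. It was 75% for regions of either control replicate, beside 61.7%, and 100% for regions whose nearest start was a member's, beside 80.2%. With a replicate left out it was 79.5% to 92.9%, beside 61.6% to 77%, and lowest without control replicate 1. For single genes and settings, 151 values kept their call or lack of one, 20 gained a call, 12 lost one and 4 turned. A turn was counted only where a call was involved. The 151 thus include uncalled values that changed sign, such as H3K27me3 at *Hand1*, from -96.7 to 2161.5 bp after scaling. The alternatives using 50 kb with scaling and the paired counts were chosen after the data were seen. Lists without scores give no depth, so short regions near the calling limit carry the least certainty.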
